A study of Homo sapiens with 12 samples.

Results

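The comparison described here set HEK 293T cells given 1 µM of the compound PDP for 3 h against cells given DMSO for 3 h. HEK 293T cells are an established line from human embryonic kidney in which SV40 large T antigen is expressed. All cells were grown in DMEM with serum and antibiotics, and poly(A) RNA was sequenced from 2 samples of each condition. The series of 12 samples also holds PDP at 24 h and 72 h and a pull-down of G-quadruplexes, labelled annealed and named gDNA in its peak list, with its input. PDP is named by its code alone. Its 3 h samples are the only PDP samples with a control of the same duration, so this comparison carries no difference in time in culture. The authors deposited 1 FPKM value (fragments scaled for transcript length and library size) per gene and condition, pooled over the 2 samples. No sample could therefore be seen on its own, no SD could be given, and depth per sample is unknown. Genes were taken when the table marked their comparison as usable and the DMSO and PDP values had a geometric mean of 1 FPKM or more, which left 13386 of 58083 genes. Of 14751 genes so marked, 1365 lay under the minimum, and 8 genes over it were not so marked. A ratio could not be formed for 60 genes listed at 0 in DMSO and at 1 FPKM or more with PDP, or for 45 genes with the reverse. CATSPERG was just inside it, with 0.743 FPKM in DMSO and 1.347 with PDP, and NPNT just outside, with 0.761 and 1.31.

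A G-quadruplex forms when runs of guanine in one strand stack into layers held by a metal ion. Such structures occur in many promoters, at telomeres and in RNA, and helicases unwind them. Small molecules that bind them can stall polymerases or change the reading of nearby genes, and early time points are used to separate first changes in transcripts from later ones. Transcripts that turn over fast, such as those of immediate early and stress genes, respond first when transcription or protein folding is disturbed.

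Promoter matches are shown first because the series asks about G-quadruplexes near genes. The search was for 4 runs of 3 or more guanines separated by loops of 1 to 7 bases, on either strand of the RefSeq promoter windows of build GRCh38.p14. Windows ran from 250 bases before to 50 bases after an annotated start, and a gene could have several. Of the 37 genes named for the size of their ratio, 15 had a window and 7 of these held a match. A match was present in 42.4% of the 9353 protein-coding genes here that had a window and a log2 ratio of PDP to DMSO under 0.5 in size, and in 27.8% of all 27305 RefSeq genes with a window. A count of 7 among 15 genes chosen by ratio is a description, and no excess is read from it. The shortest match before the start is printed 5′ to 3′ on the strand that carries the guanines, with the 4 runs of GGG in capitals. The first 3 genes were far higher with PDP and the last 4 were lower.
RCCD1, chr15:90954713-90954734, plus strand: GGGcgctGGGgcGGGggttGGG
SAMD1, chr19:14090841-14090858, minus strand: GGGaggaGGGaGGGaGGG
ATP2A1, chr16:28879983-28879999, minus strand: GGGaGGGcGGGgcaGGG
CDKL1, chr14:50396973-50396990, minus strand: GGGctGGGccGGGccGGG
XIAP, chrX:123859760-123859775, plus strand: GGGcGGGgGGGtcGGG
APOC1, chr19:44914506-44914528, plus strand: GGGaGGGgctttGGGgctaaGGG
RPS27L, chr15:63157578-63157602, plus strand: GGGtactcGGGtccaGGGcgcaGGG
The promoter window of EHMT1, the gene with the highest ratio, held no match. Both directions are thus among the genes with a match, and a match is a description of letters and not a bound site.

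Most transcripts had nearly the same level with PDP as with DMSO. The log2 ratio of PDP to DMSO had a median of -0.0036 and an SD of 0.286 over the 13386 genes, and 74.3% lay within 0.2 of 0. With no values per sample, a gene was counted as higher or lower when this log2 ratio reached 0.5 in size, without a test. By that rule 527 genes were higher (3.94%) and 299 lower (2.23%), together 826 (6.17%). At the threshold, EIF4BP7 was just inside with a log2 ratio of 0.501 and TMEM150C just outside with 0.499. TNFAIP3 lay just inside on the lower side (3.70 FPKM in DMSO, 2.62 with PDP) and LINC00958 just outside (1.97 and 1.39). At a log2 ratio of at least 1 in size there were 95 higher and 63 lower genes.

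Large ratios lay mainly in weakly expressed genes. Of the 826 genes, 411 had a geometric mean under 2 FPKM and 682 under 5 FPKM. Between 1 and 2 FPKM 27.8% of genes passed the fold and the robust SD of log2 ratios, taken from the interquartile range, was 0.417. At 50 FPKM and above 0.488% passed and the robust SD was 0.0835. Among the 5067 genes of at least 20 FPKM, 22 were higher (0.434%) and 9 lower (0.178%). The median also went down with level, from 0.05 between 1 and 2 FPKM to -0.03 at 50 FPKM and above. The authors' deposited table gave an unadjusted p-value under 0.05 to 202 of the 13386 genes (1.51%). It did so for 116 of the 527 higher and 28 of the 299 lower genes. Most genes past the fold thus had a difference that the authors' test of their samples did not separate from the spread.

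**Figure D1:**
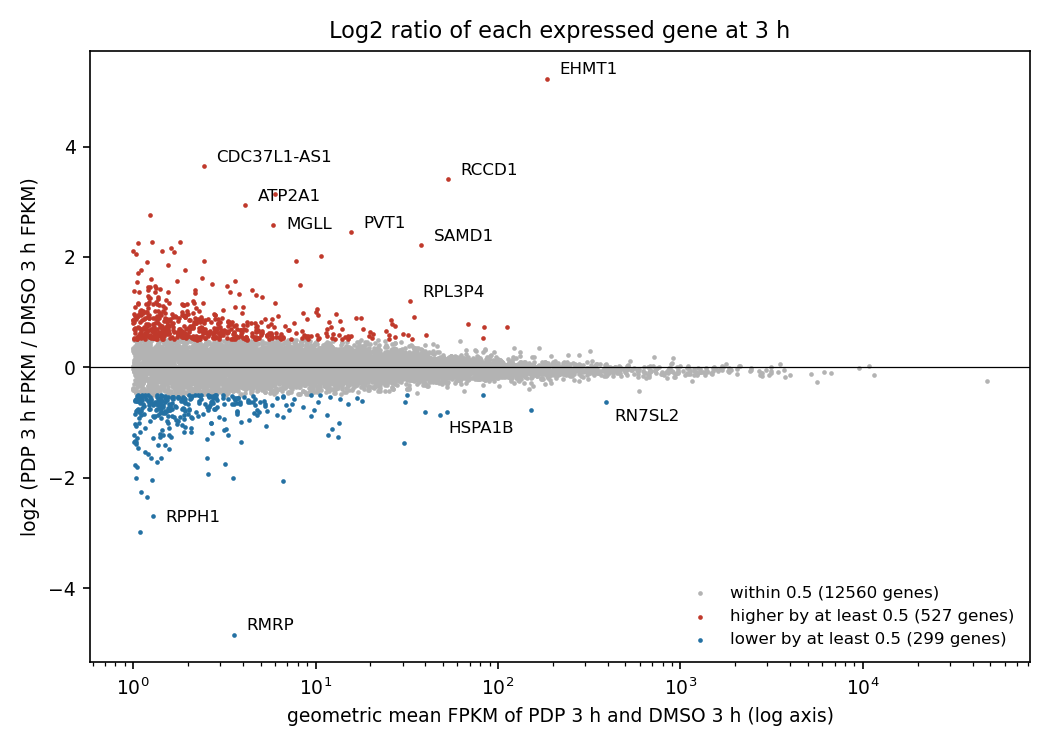
Each point is 1 of 13386 genes, with its geometric mean FPKM on a log axis and its log2 ratio of PDP 3 h to DMSO 3 h. The cloud narrows with level, while EHMT1, RCCD1 and SAMD1 stand above it and RMRP below it.

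A few genes were several times higher with PDP. EHMT1, a histone H3 lysine 9 methyltransferase (ENSG00000181090.18; the GRCh38 locus spans 137605654 to 138124624 of chromosome 9), had 30.3 FPKM in DMSO and 1137 FPKM with PDP, a ratio of 37.6. RCCD1, which encodes a protein with RCC1 repeats (chromosome 15, 90929964 to 90963125), had 16.4 and 174 FPKM. SAMD1, a reader of unmethylated CpG islands (chromosome 19, 14087840 to 14091036), had 17.6 and 81.8 FPKM. The noncoding RNA PVT1 had 6.73 and 36.6 FPKM, MGLL, the lipase that cleaves monoglycerides, 2.41 and 14.4, and ATP2A1, a calcium pump of muscle, 1.49 and 11.4. All 6 stood at the smallest p-value of the authors' deposited table, 5e-05, as did 15 genes in all, of which 14 were higher. Genes were ranked among those with a gene symbol, and the rest of the 12 highest ratios so ranked belonged to genes under 1 FPKM in DMSO. They were CDC37L1-AS1 (0.689 and 8.61 FPKM), ETNPPL, which encodes a phospholyase (0.578 and 2.79), and the pseudogenes RN7SL731P, RPL37AP1, HMGN1P38 and RN7SL12P. Of these 6, CDC37L1-AS1 (p = 0.0244) and ETNPPL (p = 0.0024) were under 0.05 in the authors' deposited table. Genes that carry a clone name only were not ranked, and CH17-472G23.2 among them, with 2.01 and 17.7 FPKM, had the fourth highest ratio of all genes (p = 0.0002 in the authors' deposited table).

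The neighbours described here had log2 ratios under 0.5 in size. In the EHMT1 locus the other 2 expressed genes were ARRDC1, with 15.7 FPKM in DMSO and 16.5 with PDP, and ARRDC1-AS1, with 12.9 and 11.3. Beside RCCD1, UNC45A had 39.8 and 37.5 FPKM and HDDC3 12.4 and 12.3. Beside ATP2A1, RABEP2 had 4.39 and 3.85 FPKM and ATP2A1-AS1 10.6 and 10.0. SAMD1, MGLL and CDC37L1-AS1 were alone in their loci. None of these neighbours came near the ratio of the leading gene beside it.

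At the later times these genes parted. The tables for 24 h and 72 h share the 3 h control, whose values in them differ by constant factors of 1.04 and 0.968, so only levels are set side by side. EHMT1 had 28.7 FPKM with PDP at 24 h (control 31.4) and 27.6 at 72 h (control 29.3). RCCD1 had 25.5 FPKM with PDP at 24 h (control 17.0) and 29.2 at 72 h (control 15.9). SAMD1 had 19.5 FPKM at 24 h (control 18.2) and 26.8 at 72 h (control 17.0). ATP2A1 had 1.80 FPKM at 24 h (control 1.55) and 2.13 at 72 h (control 1.45). The 24 h and 72 h levels of EHMT1, RCCD1, SAMD1 and ATP2A1 lay far under their 3 h values. MGLL had 4.52 FPKM at 24 h (control 2.50) and 27.7 at 72 h (control 2.33), and PVT1 9.99 (control 6.99) and 27.8 (control 6.52). MGLL and PVT1 thus had their second high value at 72 h.

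**Figure D2:**
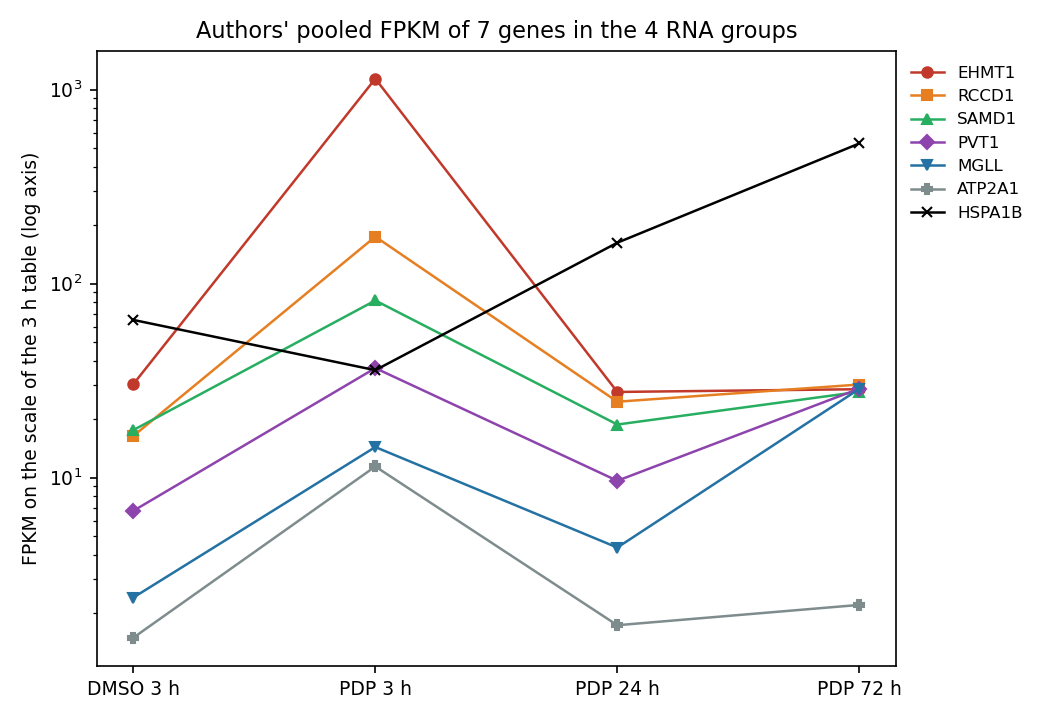
The authors' pooled FPKM of 7 genes in DMSO 3 h and in PDP at 3 h, 24 h and 72 h, on a log axis, with the later values divided by the control factors 1.04 and 0.968. The lines join the conditions of a gene and carry no error; EHMT1, RCCD1, SAMD1 and ATP2A1 peak at 3 h, and HSPA1B is lowest there.

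Among better expressed genes the higher ratios were mostly modest. At 20 FPKM and above, EHMT1, RCCD1 and SAMD1 were followed, among genes with a symbol, by 4 pseudogenes, namely RPL3P4, RPL13AP5, RPL7P9 and H3F3AP6, and by LRCH3. The clone-named gene RP11-475C16.1, with 52.2 and 90.2 FPKM, lay between RPL7P9 and H3F3AP6 (p = 5e-05 in the authors' deposited table). LRCH3, a leucine-rich repeat protein, had 21.0 FPKM in DMSO and 35.4 with PDP (p = 0.118 in the authors' deposited table). Some smaller differences had low p-values, and the following genes were chosen after their values were seen. TAB2, an adaptor of the TAK1 kinase, had 26.3 and 39.3 FPKM (p = 0.0001 in the authors' deposited table). VEZF1, a zinc finger transcription factor, had 16.0 and 24.8 FPKM (p = 0.00015 in the authors' deposited table). RYBP, a Polycomb protein, had 10.7 and 15.3 FPKM, and GNAZ, a G protein alpha subunit, 3.18 and 5.60 FPKM. EIF3CL had 9.54 and 14.2 FPKM, while its near-identical copy EIF3C had 14.2 and 14.1, so the share of reads between the copies is uncertain. Of the 28 genes with a p-value of at most 0.001 in the authors' deposited table, 25 were higher and 3 lower.

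Lower ratios were led by short structured RNAs. RMRP, the RNA of RNase MRP, which cuts ribosomal and mitochondrial RNA precursors (chromosome 9, 35657751 to 35658018), had 19.1 FPKM in DMSO and 0.663 with PDP. RPPH1, the RNA of RNase P, which matures tRNA, had 3.27 and 0.506 FPKM. SCARNA13, a guide RNA of Cajal bodies, had 1.97 and 0.680 FPKM, and RN7SKP16, a pseudogene of the 7SK RNA, 3.08 and 0.390. RN7SL1 and RN7SL2, the RNAs of the signal recognition particle, had 199 and 117 FPKM and 487 and 313 FPKM. SNORD17, a small nucleolar RNA, had 98.4 and 69.5 FPKM. Of these 7, RN7SL2 was under 0.05 in the authors' deposited table (p = 0.0001). RMRP had p = 0.122 in the authors' deposited table, although its ratio was the lowest of all.

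The whole class of short RNAs, chosen after these values were seen, was not uniform. By name it held 31 expressed genes, 17 of them lower and 5 higher, with a median log2 ratio of -0.56, against 2.23% lower and 3.94% higher over all genes. Many of the 31 were weakly expressed, and between 1 and 2 FPKM 11.2% of all genes were lower and 16.6% higher. Grouping by name also took in pseudogenes, loci named for microRNAs, and RN7SK under separate IDs at the same coordinates. The higher members of the class included RN7SL81P (0.614 and 2.30 FPKM) and SCARNA9 (2.57 and 4.44). A further 20 such genes lay under the FPKM minimum, of which 6 were listed at 0 in DMSO and 5 listed at 0 with PDP. SNORD89 was listed at 0 in DMSO and at 558 FPKM with PDP, SNORA22 at 0 and 137, and the U6 copy RNU6-33P at 3591 and 0. A library of poly(A) RNA measures such RNAs poorly, and values this far apart in both directions stand beside the ratios of RMRP and RPPH1. Their part in these ratios was not tested.

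The other low ratios fell in protein-coding and noncoding genes of low level. WDR78, a dynein arm component of motile cilia, had 2.41 and 0.503 FPKM (p = 0.00115 in the authors' deposited table). CDKL1, a kinase of the CDK-like family, had 5.87 and 1.75 FPKM, and LINC01551 1.95 and 0.559. GTSE1-AS1, CDC42EP5 and ZNF177 had between 2.09 and 2.68 FPKM in DMSO and between 0.526 and 0.941 with PDP. The pseudogenes SNRPGP10 and HMGN1P8 completed the 12 lowest among genes with a symbol. At 20 FPKM and above, the clone-named RP11-386I14.4 had the lowest ratio, with 49.3 and 19.0 FPKM. Of genes with a symbol at that level, HSPA1B, an inducible HSP70 chaperone, had 64.9 and 35.8 FPKM (p = 5e-05 in the authors' deposited table). XIAP, an inhibitor of caspases, had 52.8 and 30.05 FPKM (p = 0.0058 in the authors' deposited table). XIAP had 30.5 FPKM with PDP at 24 h (control 54.8) and 25.1 at 72 h (control 51.1). All 3 comparisons share the one control, so the later values add no separate evidence of a difference from DMSO. NMT1, which attaches myristate to proteins, had 69.8 and 39.7 FPKM, with p = 0.179 in the authors' deposited table, and 40.1 FPKM at 24 h (control 72.5) and 50.6 at 72 h (control 67.6). APOC1, an apolipoprotein, had 38.6 and 24.9 FPKM, and RPS27L, a relative of a ribosomal protein and a p53 target, 38.01 and 26.7.

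Genes of 29 lists passed the fold about as often as all genes of their level. The lists cover stress and transcription responses and also other functions, such as metabolism, ribosomal proteins and histone methyltransferases. They were chosen with earlier results of these data known. The 29 lists held 554 distinct expressed genes. Of these, 2 were higher (EHMT1 and PVT1) and 4 lower, or 1.08% in all, against 6.17% over all genes. The list genes were better expressed, with a median of 63.9 FPKM. At 20 FPKM and above, 2 of 420 list genes (0.476%) and 31 of 5067 genes in all (0.612%) passed the fold. The low count of list genes is thus near that of all genes at this level, and the 2 were EHMT1 and HSPA1B. No list had more than 1 member past the fold, and 23 of 29 had none.

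**Figure D3:**
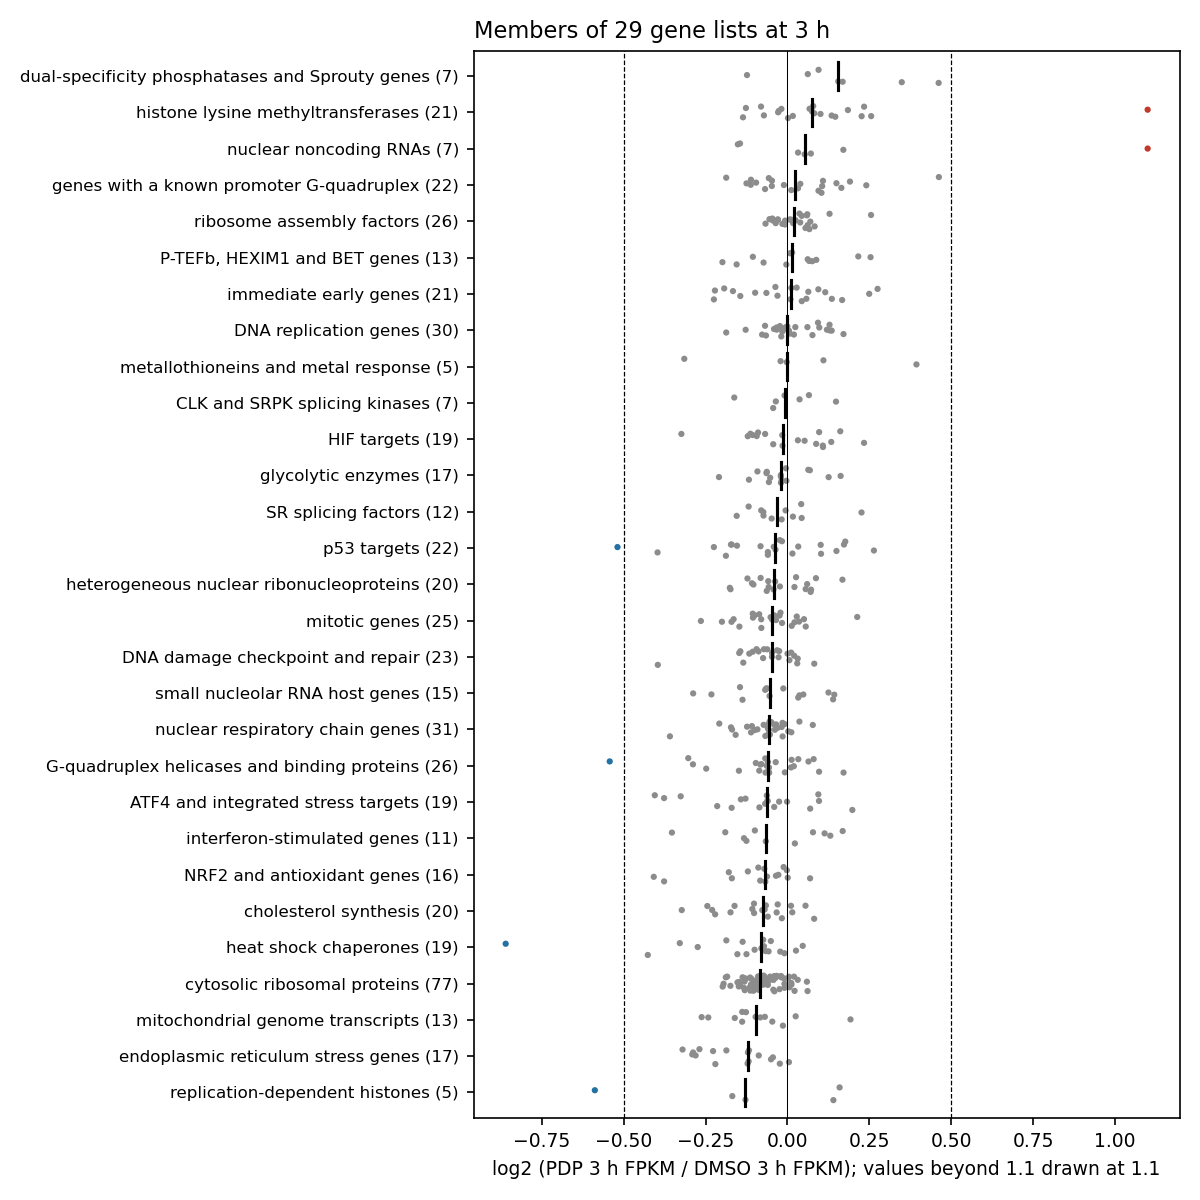
Each point is a list member's log2 ratio of PDP 3 h to DMSO 3 h, the black bar is the list median, and the number of expressed members is in brackets. Dashed lines mark 0.5 in size, which 6 genes pass; EHMT1 and PVT1 are drawn at 1.1.

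Fast-response genes showed little difference. None of 21 immediate early genes passed the fold and their median was 0.01. MYC, a growth-promoting transcription factor, had 271 FPKM in DMSO and 273 with PDP, and MCL1, a short-lived survival protein, 97.4 and 99.3. The 7 phosphatase and Sprouty genes that damp ERK signalling had the highest list median, 0.16. DUSP7 among them had 23.8 and 30.3 FPKM (p = 0.0201 in the authors' deposited table) and SPRY1 23.6 and 26.6. None of the 5 metallothionein and metal response genes passed, though MT2A had 29.4 and 38.7 FPKM. Interferon-stimulated genes, 11 expressed, had a median of -0.07 and none past the fold.

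Chaperone and stress genes had mostly small negative log2 ratios. Of 19 heat shock chaperone genes 17 had a negative log2 ratio, with a median of -0.08. HSPA1B was the member past the fold, and its near-identical copy HSPA1A had 8.10 and 6.45 FPKM, so reads may be split between them. HSPA8, the constitutive HSC70 chaperone, had 689 and 513 FPKM (p = 0.0239 in the authors' deposited table; chosen after its value was seen). Of 17 genes of endoplasmic reticulum stress 16 had a negative log2 ratio, with a median of -0.12 and none past the fold. HSP90B1 had 337 and 289 FPKM and CALR, a lectin chaperone, 294 and 277. In the ATF4 list 15 of 19 were negative, with a median of -0.06, and ATF4 itself had 602 and 576 FPKM. In the NRF2 list 14 of 16 were negative, with a median of -0.07, and PRDX1, a peroxidase, had 715 and 636 FPKM. These medians sit beside -0.02 for all genes of at least 20 FPKM and -0.03 for those of at least 50 FPKM. Most genes of these levels thus had a negative log2 ratio too, and the list counts were not compared with their share. Other lists, such as the ribosomal protein genes, had medians as low, and no list was tested as a set.

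Genes of the p53 response, DNA damage and the cell cycle mostly had ratios near 0. Of all genes, 3.28% passed the fold at 5 to 10 FPKM, 0.696% at 20 to 50 and 0.488% at 50 and above. Counts of none or 1 in these lists are therefore too few to compare with a background share. Of 22 listed p53 targets, BBC3, which encodes the killer protein PUMA, was past the fold with 4.17 FPKM in DMSO and 2.91 with PDP. The list median was -0.04, with 14 negative. RPS27L, named above as a p53 target, is not in this list and was also lower past the fold (log2 ratio -0.51). None of 23 checkpoint and repair genes passed the fold (median -0.05, 16 negative), with PARP1 at 365 and 343 FPKM. None of 30 DNA replication genes passed (median -0.0020, 16 negative), and MCM7, a subunit of the replicative helicase, had 232 and 231 FPKM. None of 25 mitotic genes passed (median -0.05, 18 negative), with CCNB1, the mitotic cyclin, at 184 and 160 FPKM. The counts of negative ratios are a description, since all genes of at least 20 FPKM also had a negative median, -0.02. Of 5 expressed replication-dependent histone genes HIST1H2BC was past the fold, at 1.25 and 0.832 FPKM.

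Lists of genes tied to G-quadruplexes by earlier work had at most 1 member past the fold, too few to compare with a background share. Of all genes, 1.63% passed the fold at 10 to 20 FPKM, 0.696% at 20 to 50 FPKM and 0.488% at 50 FPKM and above. None of 22 genes with a known promoter G-quadruplex passed the fold, and their median was 0.02. Among 26 helicases and binding proteins PIF1, a helicase that unwinds G-quadruplexes, was past the fold with 14.5 FPKM in DMSO and 9.93 with PDP (p = 0.0858 in the authors' deposited table). The list median was -0.06. In a separate list of 21 histone lysine methyltransferases EHMT1 alone was past the fold. The median of this list was 0.08, and its mean of 0.302 rests on EHMT1. In another separate list, of 7 nuclear noncoding RNAs, PVT1 alone was past the fold.

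Transcripts for making RNA and protein had small ratios, most of them negative for the ribosomal proteins. All genes of 50 FPKM and above also had a negative median, -0.03. Of all genes, 0.696% passed the fold at 20 to 50 FPKM and 0.488% at 50 and above, so none past it in these lists is near that share. The 77 ribosomal protein genes had log2 ratios between -0.20 and 0.06, with 67 negative and a median of -0.08. RPL39 had 4205 and 3803 FPKM and RPS27 3975 and 3523. None of 26 ribosome assembly factors passed the fold (median 0.02), nor any of 15 small nucleolar RNA host genes (median -0.05), where GAS5 had 388 and 351 FPKM. None of 12 SR splicing factors (median -0.03), 7 splicing kinases (median -0.0087), 20 heterogeneous nuclear ribonucleoproteins (median -0.04) and 13 genes of P-TEFb, HEXIM1 and BET proteins (median 0.01) passed. SRSF1 had 457 and 462 FPKM, HNRNPA1 1650 and 1579, and BRD2, a reader of acetylated histones, 259 and 271.

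Metabolic lists had no member past the fold, which is near the share over all genes of their level. That share was 0.696% at 20 to 50 FPKM and 0.488% at 50 and above. None of 19 HIF targets (median -0.01), 17 glycolytic enzymes (median -0.02) and 20 cholesterol synthesis genes (median -0.07) passed the fold. DDIT4, an inhibitor of mTORC1, had 64.9 and 60.3 FPKM, GAPDH 1859 and 1833, and FDPS 123 and 120. None of 13 mitochondrial transcripts (median -0.10) and 31 nuclear respiratory chain genes (median -0.06) passed. MT-ND4L, a complex I subunit, had 12129 and 11021 FPKM.

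Pseudogenes were the gene class that leaned high. Pseudogenes are copies of genes, many of them reverse-transcribed from mature RNA and lacking introns. Of 259 pseudogenes not annotated as transcribed, 103 were higher (39.8%) and 18 lower (6.95%), against 3.94% and 2.23% over all genes. Their median log2 ratio was 0.35, beside -0.0066 for 11752 protein-coding genes, of which 246 were higher (2.09%) and 143 lower (1.22%). The excess held at each level: 43.6% were higher between 1 and 5 FPKM, 35.5% between 5 and 20, and 28.1% at 20 and above, beside 8.197%, 0.930% and 0.182% of protein-coding genes. The 209 transcribed pseudogenes had a median of 0.05, with 21 higher and 12 lower. The 517 long noncoding RNA genes had a median of -0.01, with 53 higher and 51 lower.

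The genes these pseudogenes were copied from did not share the shift. By name, 168 pseudogenes could be paired with 129 expressed parents, and 139 of the 168 (82.7%) had a higher log2 ratio than their parent. The median was 0.41 for the pseudogenes and -0.06 for the parents, none of which passed the fold under the ID used. For the parent RN7SK that ID had 11.6 and 8.99 FPKM, while another at the same coordinates had 20.6 and 8.62 and was lower past the fold. RPL3P4 had 21.7 FPKM in DMSO and 49.7 with PDP, while RPL3 had 1523 and 1513. RPL13AP5 had 25.3 and 47.9 FPKM, while RPL13A had 1428 and 1290. RPL7P9 had 19.3 and 34.8 FPKM, while RPL7 had 1323 and 1245. NPM1P27 had 65.1 and 108 FPKM, while NPM1, a nucleolar chaperone, had 2468 and 2356. The 4 copies of PPIA, which encodes cyclophilin A, had log2 ratios between 0.14 and 0.83, while PPIA had 3536 and 3315 FPKM, and 3 of the 4 passed the fold. The 6 copies of RPL23A had log2 ratios between -0.32 and 1.37, with a median of 0.23 and 1 past the fold, while RPL23A had 875 and 844 FPKM. Not all copies were higher: RPS2P5 had 695 and 658 FPKM and RPL39P3 a log2 ratio of -0.23.

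Both ribosomal and other parents showed this. Of 53 pseudogenes with a ribosomal protein parent 49 had a higher log2 ratio than the parent, and of 115 with another parent 90 had. When the FPKM of parent and copies were added, the 129 families had a median log2 ratio of -0.05. Copies share sequence with the parent, and the parents were far more abundant, with a median of 253 FPKM against 3.31 FPKM. The summed ratio therefore follows the parent and cannot show where the reads of a copy came from. The origin of reads given to a copy is uncertain, pairs with the same parent are not independent, and the part of read assignment in the shift was not tested.

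**Figure D4:**
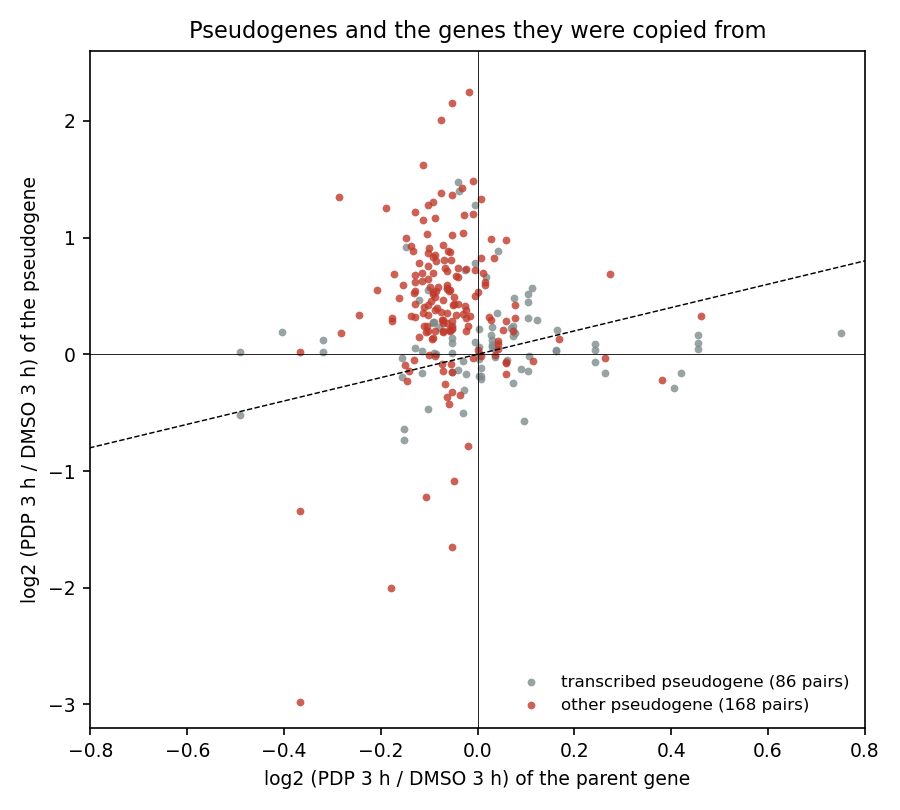
Log2 ratio of PDP 3 h to DMSO 3 h of each pseudogene against that of its parent gene, for 168 pseudogenes not annotated as transcribed (red) and 86 transcribed ones (grey), with the line of equal ratios dashed. The parents cluster near 0, and 139 of the 168 red points lie above the line.

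The promoter motif was in a similar share of genes past the fold and of others, with no test of the difference. Of 9644 protein-coding genes with a promoter window, 84 of 181 higher genes (46.4%), 51 of 110 lower genes (46.4%) and 3970 of 9353 other genes (42.4%) held it. The median log2 ratio was 0.0017 for 4105 genes with the motif and -0.02 for 5539 without. Genes with the motif were higher in 2.05% and lower in 1.24%, and genes without in 1.75% and 1.07%. The groups differ in level, with medians of 14.2 and 17.9 FPKM. Genes past the fold were weakly expressed, with medians of 2.16 FPKM for the higher and 1.99 for the lower, beside 16.9 for the others. Between 1 and 5 FPKM 12.6% of genes with the motif and 13.1% without passed the fold in either direction. Between 1 and 5 FPKM 7.29% of 851 genes with the motif and 8.32% of 986 without were higher. Between 5 and 20 FPKM it was 17 of 1643 (1.03%) and 12 of 1974 (0.608%), and at 20 FPKM and above 5 of 1611 (0.310%) and 3 of 2579 (0.116%). In the weakest genes the share called higher was thus smaller with the motif than without. It was larger with the motif in the other 2 classes, where it rests on few genes. The share called lower was 5.29% with the motif and 4.77% without between 1 and 5 FPKM. Between 5 and 20 FPKM it was 0.183% and 0.507%, and at 20 FPKM and above 0.186% and 0.0775%.

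The pull-down gave a readout that did not enter the choice of genes. Its list holds 51446 peaks merged from both replicates, and a peak was given to a locus by its centre. In loci that hold a single gene, a peak lay in 35 of 87 higher protein-coding genes (40.2%), 18 of 37 lower genes (48.6%) and 1399 of 3565 others (39.2%). In such loci of up to 50 kb, genes with a peak had a median log2 ratio of -0.0071 (774 genes) and genes without one -0.02 (2022 genes). Above 50 kb the medians were 0.01 (678 genes) and 0.03 (215 genes). Among leading genes, the EHMT1 locus of 519 kb held 23 peaks, the PVT1 locus of 307 kb 13 and the MGLL locus of 134 kb 8, whereas those of SAMD1, CDC37L1-AS1, RMRP, HSPA1B and XIAP held none. A longer locus has more room for peaks, and no rate per length was compared.

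Median ratios differed little between locus lengths. In loci that hold 1 protein-coding gene the median log2 ratio was -0.02 under 10 kb (895 genes), -0.0099 from 10 to 30 kb (1307 genes), 0.0012 from 30 to 100 kb (1155 genes) and 0.03 from 100 to 300 kb (306 genes). Above 300 kb it was 0.07 over 26 genes, with 2 higher and 2 lower. The step between the classes up to 300 kb is small beside the robust SD of 0.130 to 0.151 within each. Level moved with length, from a median of 17.0 FPKM under 10 kb to 9.87 FPKM from 100 to 300 kb and 4.36 above. All genes of 5 to 10 FPKM had a median of 0.02 and those of 2 to 5 FPKM 0.04, beside 0.03 for the loci of 100 to 300 kb.

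Markers of the line were present and alike in both conditions. Of 10 markers of HEK 293T cells 9 were expressed, among them VIM (259 and 235 FPKM), NEFM (39.1 and 40.0) and KRT8 (35.6 and 38.5), and SOX11 was listed at 0. Their summed level was 457 FPKM in DMSO and 440 with PDP. Summed hepatocyte markers came to 0.440 and 0.429 FPKM. Among blood cell and hepatocyte markers HBB and TTR were listed at 0 in both conditions, and PTPRC, CD3E, FGB and SERPINA1 with PDP. Fibroblast markers summed to 15.6 and 12.5 FPKM, most of it COL1A1 (12.6 and 9.91), with FAP listed at 0 in both. LUM had 1.52 and 1.09 FPKM and COL3A1 1.11 and 1.12.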

How the data were processed

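The submitters' processing notes name HISAT2 2.0.5, Cufflinks 2.2.1, HOMER 4.9.1 and GRCh38.p7, with no settings; libraries were made with a stranded poly(A) kit, per the labels' protocols. The authors deposited FPKM values pooled over replicates and a p-value per gene, in the columns of a Cuffdiff test, per the file headers. Peaks carry a score deposited by the authors, but only their positions were used; both replicates' peak files are named in the list. Log2 ratios were computed from FPKM with no pseudocount. The fold of 0.5 (log2) replaced a test, since no values per sample were used here. The authors' own fold change and call were not used. Members and gene lists were chosen with earlier results of these data known.

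Named genes were the 12 highest and 12 lowest ratios with a symbol, the 8 highest and 8 lowest at 20 FPKM or more, and per list up to 3 members past the fold or else the 2 of highest FPKM. Other named genes were chosen after their values were seen. Of 13386 genes, 13281 had a symbol by ID and 12762 a RefSeq class, and 20 symbols stored as dates were restored. Counting was tested on simulated data. Replicates are labelled bio1 and bio2 without saying whether they were separate cultures, so p-values may measure technical spread. Work was done in Python 3.11.15 with pandas 2.3.3 and NumPy 2.4.6, and plots with Matplotlib 3.10.9. Values of some genes are not reported here.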

Additional observations from a re-analysis of the deposited data

How the results depend on the processing

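Counts of higher and lower genes depended on threshold and level. They were 1173 and 808 at a log2 ratio of 0.3, 95 and 63 at 1, 103 and 41 with an FPKM minimum of 5, 22 and 9 with a minimum of 20, 906 and 615 with none, 262 and 140 with a pseudocount of 1, and 246 and 143 in protein-coding genes. Any status (529 and 301), centring (536 and 293) and, as a choice made after seeing the data, leaving out pseudogenes (402 and 269) kept them within 1.5 times. Higher genes outnumbered lower ones in all 10 of these settings.

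The motif share was 62.4% of higher, 58.2% of lower and 59.6% of other genes with loops of up to 12 bases, 28.2%, 30.9% and 26.2% with G runs on the gene strand, 28.2%, 25.5% and 23.2% on the opposite strand, and 38.3%, 37.0% and 34.6% in genes with 1 window, a choice made after seeing the data. A peak lay in 28.1%, 34.5% and 27.6% of loci under 50 kb. Of 29 list medians, 1 moved by over 0.05 with a minimum of 5 FPKM, and 3 when the mean replaced the median (heat shock, methyltransferase and nuclear noncoding lists). Leaving out replicates was not run, and no paired analysis was possible because each table gives 1 pooled value per condition. Depth per sample is unknown, so no value here can be tied to a single library.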
